A study of Mus musculus with 9 samples.

Results

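The voltage-gated sodium and calcium channel genes were read in hippocampal RNA of 9 male mice, with 1 Affymetrix Mouse Clariom S array per mouse. Members were chosen by their symbol, Scn with a number and a or b, or Cacn with a family letter and a number, which takes in the pore-forming, β and γ subunits and leaves out the α2δ subunits. The platform's probe-gene table named 31 such genes among 19505 genes with a symbol, and each was read by 1 probe set. The values are the deposited log2 values, so a difference of 1 is a 2-fold difference.

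The mice were all C57BL6 by the labels (C57BL/6NCrSlc by the study's methods) and untreated. The OldD group was mice 2, 6 and 11, the Old group mice 3, 8 and 18, and the Young group mice 7, 19 and 20, and values are given in that order of mice throughout. The label of an OldD mouse carries the letter D, which the labels do not spell out and which was read as the study's adult mice with cognitive decline. By the study's text, OldD and Old mice were adult mice of 47 weeks and Young mice were of 11 weeks. OldD mice were the 3 adult mice with the lowest ranks over a Y-maze and an open field test. Old mice were, by the study's discussion, the 3 adult mice that scored highest. OldD against Old thus sets opposite ends of the same ranking side by side, and each group is a small selected set of animals. OldD and Young mice differ in both age and cognition, whose parts cannot be told apart in that comparison.

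In the 3 Old columns, 15915 of 22206 values per mouse (71.7%) lie on a straight line by row number, to within 5e-10, and were dropped as filled values. The remaining 6291 probe sets left 9 of the 31 channel genes with Old values, all on chromosomes 1 and 2. These were Scn1a, Scn2a, Scn3a, Scn7a, Cacna1b, Cacna1e, Cacna1s, Cacnb2 and Cacnb4. The other members were compared only between OldD and Young mice. Array medians were 6.65 to 6.71 in OldD mice and 6.62 to 6.68 in Young mice over all probe sets, and 6.94 to 7 in Old mice over the measured ones. Pairs of arrays correlated at 0.990 to 0.995 over these 6291 probe sets. All 7 neuronal, all 10 dentate granule cell and all 12 pyramidal cell markers on the array lay above the level of silent receptors described further on. So did all 14 thalamus markers and 14 of 15 choroid plexus markers, so this check shows detection and does not identify the tissue.

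Voltage-gated sodium channels open within a fraction of a millisecond of depolarization and carry the upstroke of the action potential. A pore-forming α subunit makes the channel, and β subunits set its gating and its place on the membrane. Voltage-gated calcium channels turn depolarization into calcium entry, which drives transmitter release at terminals and signalling to the nucleus in dendrites. L-type channels serve dendrites and the soma, P/Q-, N- and R-type channels serve synaptic terminals, and T-type channels open near rest and support burst firing. The γ family has its name from a skeletal muscle calcium channel subunit, but most of its brain members are transmembrane AMPA receptor regulatory proteins (TARPs), which carry AMPA receptors to the synapse and slow their closing. In the hippocampus these genes together shape excitability and synaptic strength.

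Some of these genes were detected in the hippocampus and others lay at the level of silent genes, and 4 upstream sequences are shown to set such members side by side. They are the 250 bases before an annotated start in RefSeq (mouse build GRCm38.p6), written along the strand of the gene, with each CpG dinucleotide (CG, which reads the same on both strands) in capitals. Cacng7 and Cacng6 are γ genes that flank Cacng8 on chromosome 7, on the plus strand at chr7:3332575-3332824 and chr7:3424412-3424661, of which Cacng7 lay above and Cacng6 below the silent level. Scn8a (plus strand, chr15:100870395-100870644) and Scn10a (minus strand, chr9:119719033-119719282) are sodium channel α genes with the same contrast. Scn8a has 2 listed starts, and the one with more CpG is shown.
Cacng7: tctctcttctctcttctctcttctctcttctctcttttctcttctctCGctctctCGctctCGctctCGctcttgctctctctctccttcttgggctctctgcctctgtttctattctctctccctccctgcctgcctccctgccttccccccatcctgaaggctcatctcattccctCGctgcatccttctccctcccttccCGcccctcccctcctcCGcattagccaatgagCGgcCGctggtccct
Cacng6: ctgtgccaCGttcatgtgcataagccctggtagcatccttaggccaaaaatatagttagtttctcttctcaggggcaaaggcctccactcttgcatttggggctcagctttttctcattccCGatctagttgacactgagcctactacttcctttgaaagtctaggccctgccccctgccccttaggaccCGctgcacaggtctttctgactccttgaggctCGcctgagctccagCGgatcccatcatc
Scn8a: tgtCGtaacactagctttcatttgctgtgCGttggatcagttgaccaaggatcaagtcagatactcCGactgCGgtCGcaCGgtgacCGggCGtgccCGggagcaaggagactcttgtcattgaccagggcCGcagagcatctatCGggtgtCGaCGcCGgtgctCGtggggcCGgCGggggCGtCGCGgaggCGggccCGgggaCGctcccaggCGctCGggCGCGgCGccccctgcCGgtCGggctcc
Scn10a: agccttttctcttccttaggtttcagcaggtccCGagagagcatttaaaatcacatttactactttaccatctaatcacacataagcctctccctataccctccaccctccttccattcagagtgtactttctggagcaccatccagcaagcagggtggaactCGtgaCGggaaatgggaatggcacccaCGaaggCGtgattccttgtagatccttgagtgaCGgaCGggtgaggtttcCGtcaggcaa
These windows held 9 CpG in Cacng7, 5 in Cacng6, 30 in Scn8a and 8 in Scn10a. The Scn8a start that is not shown held 9 CpG, so the contrast of Scn8a with Scn10a depends on the start chosen. RefSeq's table held 24 of the 31 members, and each gene was read at its start with the most CpG. All listed members with more than 1 start lay above the silent level, so of the 2 sets this choice could raise only that one. The 2 starts of Cacna1d held 50 and 2 CpG, and those of Cacnb2 held 30 and 3. The medians below therefore depend on the choice of start. The 19 listed members above the silent level had a median of 16 CpG (range 0 to 50) and a GC content of 62.0%. The 5 listed members at or below it had a median of 5 (range 3 to 9) and a GC content of 49.6%. Over 27025 genes of the table the medians were 6 CpG and 52.8%, and 92.3% of the genes held at least 1 CpG in the window. The ranges of the 2 sets overlap, and Cacng8, above the silent level, had 0 CpG in its window. The array does not measure methylation or binding at these windows, so the counts are a description of sequence only.

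The level at which a probe set can be read as detected was taken from genes that brain tissue is not known for. The 1414 probe sets of olfactory and vomeronasal receptors had a median of 3.91 and a 95th percentile of 5.36 over the 6 OldD and Young mice. By the mean of those mice, 25 members lay above the silent level and 6 lay at or below it. The 6 were Cacna1s, the skeletal muscle L-type channel, Cacna1f, the retinal L-type channel, Scn10a and Scn11a, the α subunits of sensory neurons, Cacng1, the γ subunit of skeletal muscle, and Cacng6. Levels of different probe sets are not compared further, because probes differ in how well they bind.

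**Figure D1:**
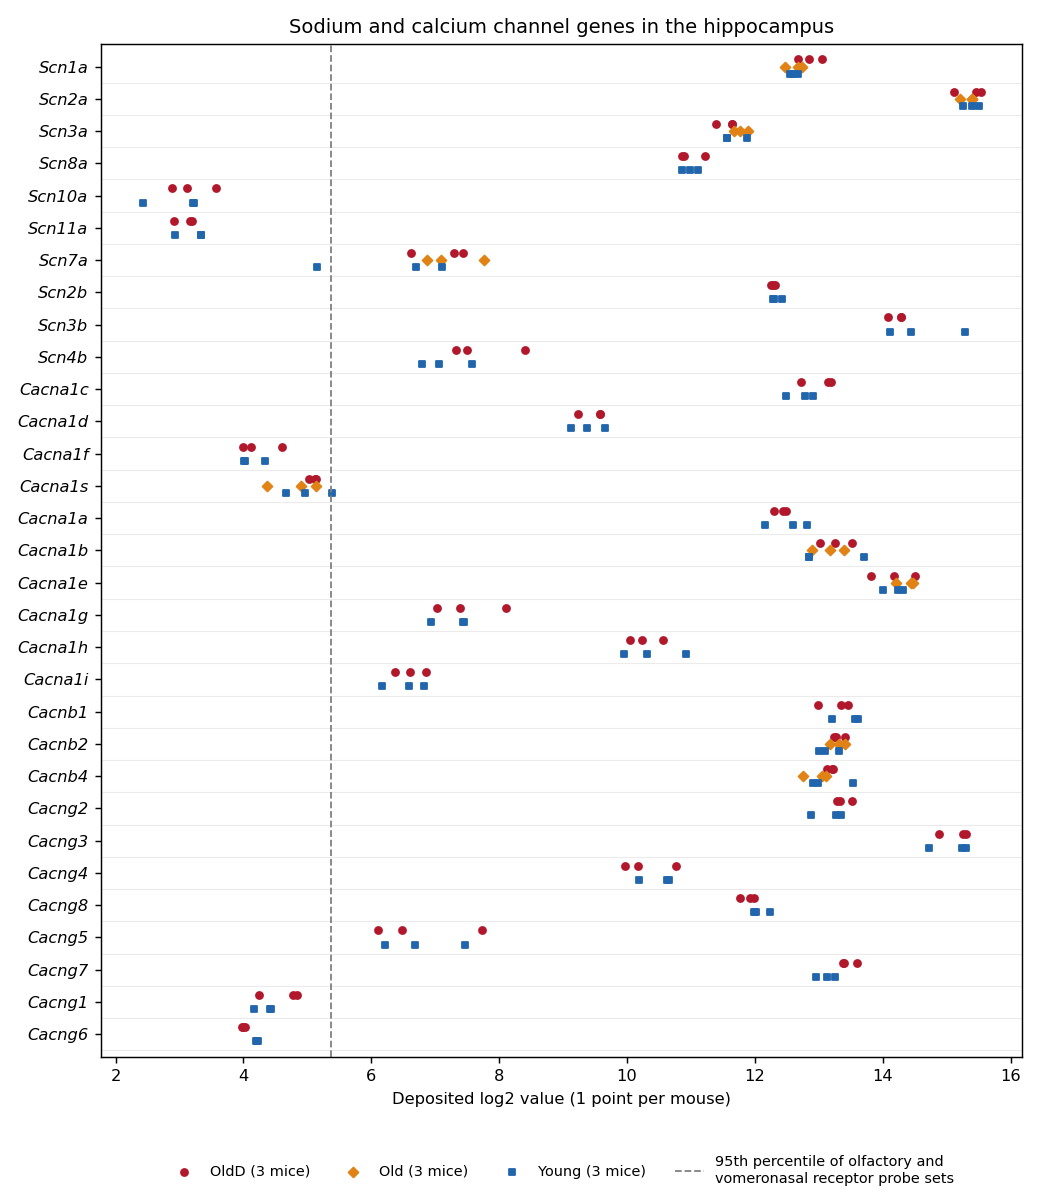
Deposited log2 value (horizontal axis) of each of the 31 channel genes, 1 point per mouse, for OldD, Old (9 genes) and Young mice, 3 each. The dashed line is the 95th percentile of silent receptor probe sets (5.36), with 25 genes above it by their mean, and the groups overlap in most rows.

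No channel gene passed the threshold in any comparison. The threshold of the study's methods, a fold over 1.5 (0.58 on the log2 scale) with an unadjusted p under 0.05, was passed by 0 of 9 members in OldD against Old, by 0 of 9 in Old against Young and by 0 of 31 in OldD against Young (limma). Over all probe sets the same threshold called 1.54% for OldD against Old, 1.29% for Old against Young and 1.7% for OldD against Young. An unadjusted p under 0.05 with no fold limit was reached by 0 members in each comparison, against 5.33%, 4.26% and 5.71% of all probe sets in the same order of comparisons. After Benjamini-Hochberg adjustment over all probe sets of a comparison, limma called 0 members and 0% of all probe sets in each of the 3 comparisons. On the same values the methods' t-test gave an unadjusted p under 0.05 for 0 members in each comparison with Old and for 2 members, Cacng7 and Cacng6, in OldD against Young, and neither passed the fold threshold. By that rule the methods' t-test called 5.09% of all probe sets for OldD against Old, 3.97% for Old against Young and 4.95% for OldD against Young. In whole hippocampus, fewer cells of a type and less RNA per cell cannot be told apart, and this holds for each difference given here.

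The direction of the members was mixed. In OldD against Old mice, 6 members were higher and 3 lower, with a median log2 difference of 0.03 (range -0.21 to 0.29), against 0.01 over all probe sets. Old against Young gave 6 higher and 3 lower, with a median of 0.03 (range -0.20 to 0.92), against -0.01 over all. OldD against Young gave 18 higher and 13 lower, with a median of 0.06 (range -0.40 to 0.80), against 0.00 over all. The median size of the difference, sign left aside, was 0.13 for the 31 members and 0.14 for all probe sets in that last comparison.

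What the data allow was read from the 95% interval of each difference. In OldD against Young, 16 of 31 members (51.6%) had an interval that lay within a fold of 1.5 either way, against 49.9% of all probe sets. In OldD against Old this held for 4 of 9 members, against 51.7% of all probe sets, and in Old against Young for 6 of 9, against 54.9%. For the other members a 1.5-fold difference lay inside the interval, so these arrays do not bound it. Groups whose 3 values did not overlap were found for 3 of 31 members in OldD against Young (Scn1a, Cacng6 and Cacng7), where 10.4% of all probe sets had such groups. They were found for 2 of 9 members in OldD against Old (Scn3a and Cacnb4), against 11% of all probe sets, and for 0 of 9 in Old against Young, against 8.71%. With 3 mice in each group, an exact two-sided permutation test cannot give a p below 0.1.

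**Figure D2:**
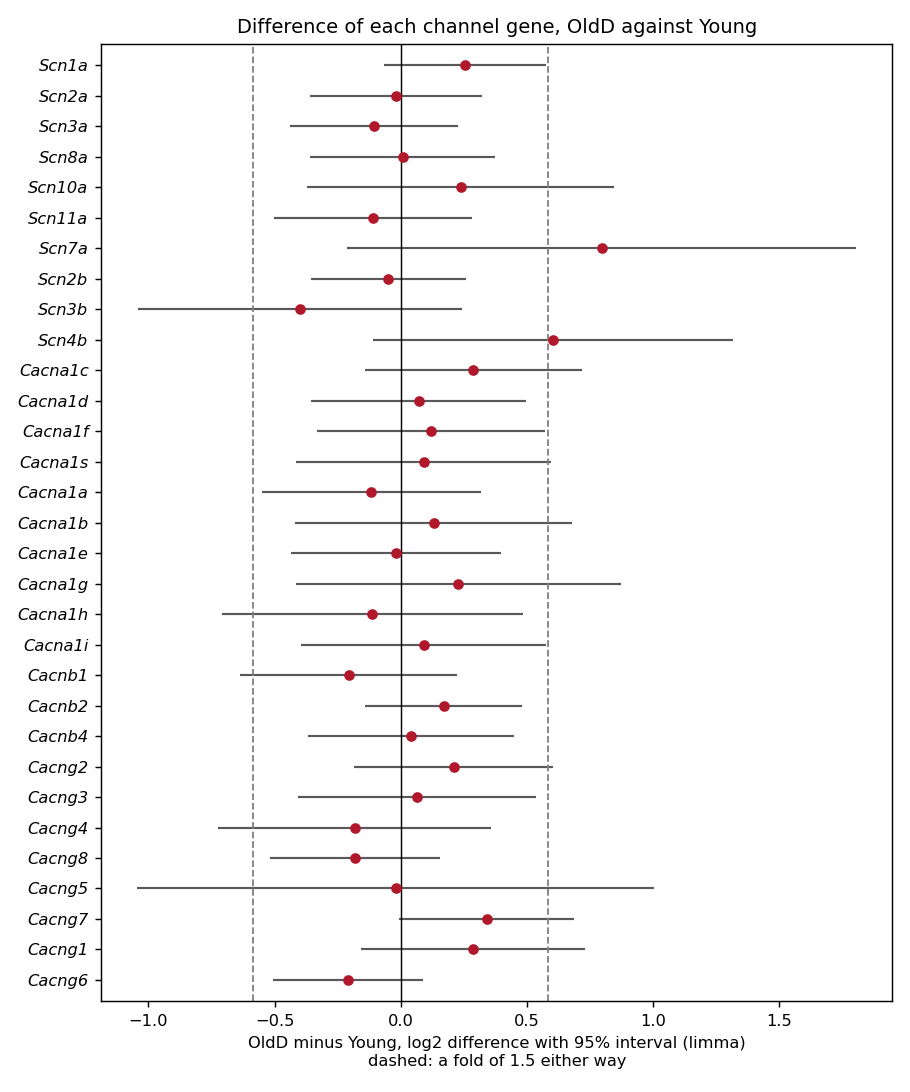
Log2 difference of each of the 31 channel genes, OldD minus Young (horizontal axis), with its 95% limma interval, and dashed lines at a fold of 1.5 either way. Every interval includes 0, and 16 of them lie between the dashed lines.

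The central α subunits of sodium channels were read in all groups except for Scn8a, which had no measured Old value. Scn1a, the α subunit that fast-spiking interneurons depend on, had 12.85, 12.68 and 13.05 in OldD mice, against 12.47, 12.67 and 12.73 in Old mice and 12.60, 12.55 and 12.67 in Young mice. All 3 OldD values lay above all 3 Young values, the closest pair being 12.68 in OldD mouse 6 and 12.67 in Young mouse 20. The exact permutation test for OldD against Young gave its smallest p, 0.1. The lowest OldD value lay between Old values. The means were 12.86 ± 0.19 in OldD, 12.62 ± 0.14 in Old and 12.61 ± 0.06 in Young mice (SD, n = 3 each). OldD differed from Old by 0.24 (SE 0.14, adjusted p = 0.853, limma) and from Young by 0.25 (SE 0.14, 95% interval -0.07 to 0.57, adjusted p = 0.877). Without OldD mouse 11, the highest of all 9 mice, OldD differed from Old by 0.14 and from Young by 0.16, and without it and Young mouse 19 from Young by 0.13.

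Scn2a, the α subunit of excitatory axons, had 15.53, 15.46 and 15.11 in OldD mice, against 15.21, 15.40 and 15.40 in Old mice and 15.26, 15.39 and 15.51 in Young mice. The 3 groups covered the same range, and the differences were 0.03 for OldD against Old and -0.02 for OldD against Young (SE 0.15 each). Scn3a, an α subunit best known from the embryonic and early postnatal brain, had 11.65, 11.65 and 11.39 in OldD mice, against 11.67, 11.89 and 11.76 in Old mice and 11.56, 11.57 and 11.88 in Young mice. Its OldD values all lay below its Old values, by 0.02 at the closest pair, while Young values overlapped both groups. The difference of OldD from Old was -0.21 (SE 0.15, adjusted p = 0.853, limma), and the exact permutation test gave its smallest p, 0.1. Scn8a, the α subunit that concentrates at nodes of Ranvier and the axon initial segment, had 11.22, 10.89 and 10.86 in OldD mice, against 10.98, 10.86 and 11.11 in Young mice. These groups overlapped fully, with a difference of 0.01 (95% interval -0.36 to 0.37).

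The sensory α subunits Scn10a and Scn11a stayed at the silent level in each OldD and Young mouse, from 2.43 to 3.57 over both genes, and their differences are not read as expression. Scn7a, which encodes the sodium-sensing channel Nax of glia and sodium-detecting neurons, is no classical voltage-gated channel though it carries the family name. It had 6.62, 7.30 and 7.43 in OldD mice, against 6.87, 7.77 and 7.09 in Old mice and 5.15, 6.70 and 7.11 in Young mice. Young mouse 7, at 5.15, lay below the silent level, and the other 8 mice lay above it. The means were 7.12 ± 0.44 in OldD, 7.24 ± 0.47 in Old and 6.32 ± 1.03 in Young mice (SD, n = 3 each). These gave the widest differences of the set, 0.80 for OldD against Young (SE 0.45, 95% interval -0.21 to 1.81, adjusted p = 0.879, limma) and 0.92 for Old against Young (SE 0.45, 95% interval -0.09 to 1.93, adjusted p = 0.999). Both comparisons share the Young mice. Without Young mouse 7 the differences were 0.21 and 0.34. Without Young mouse 20, which had the highest Young value, they were 1.19 (unadjusted p = 0.0266, limma) and 1.32 (unadjusted p = 0.0168, limma), both past the threshold of the methods.

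**Figure D3:**
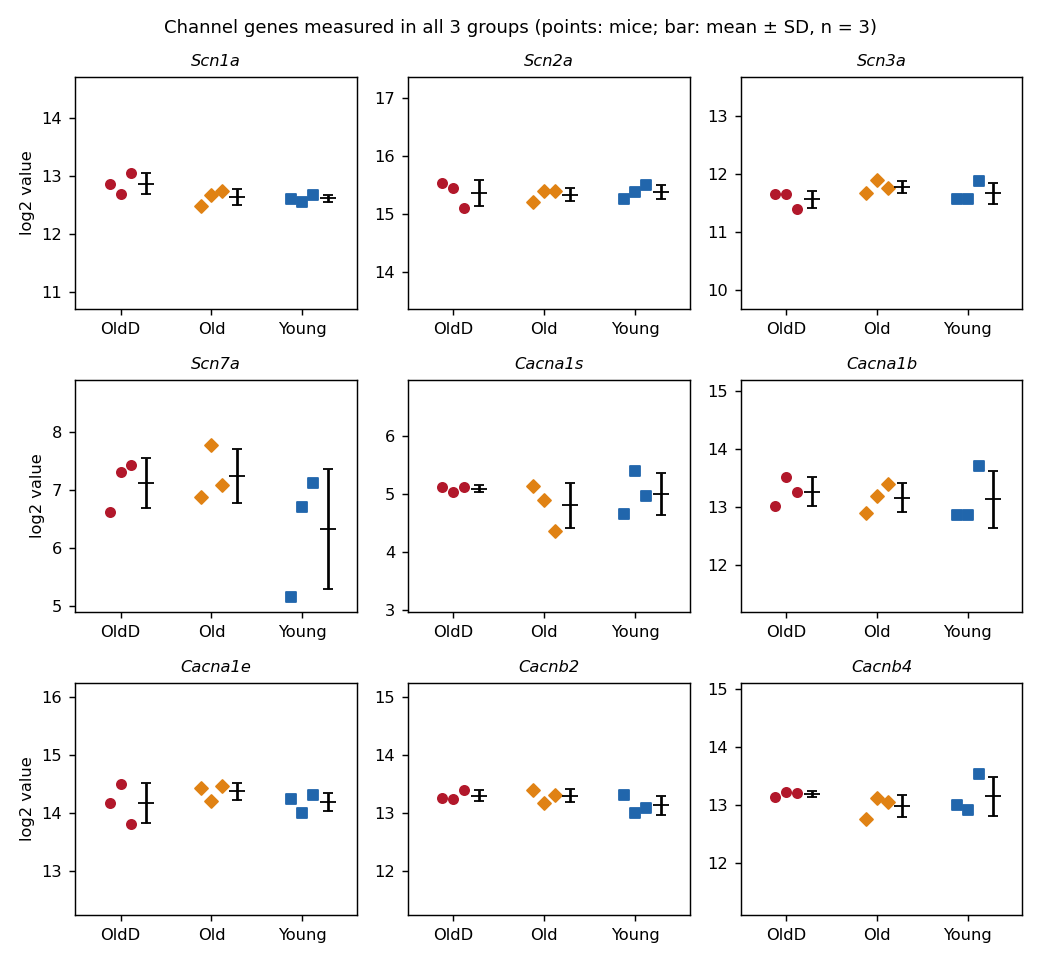
Log2 values (vertical axes, the same span of 4 units in each panel) of the 9 channel genes measured in OldD, Old and Young mice, with points for mice and a bar for the mean ± SD of 3. Scn1a is higher in all 3 OldD mice than in all 3 Young mice, with 12.68 and 12.67 at the closest pair. Scn7a is widest in Young mice, where mouse 7 lies at 5.15.

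Of the β subunits of sodium channels, Scn2b differed least. It ranged from 12.26 to 12.32 in OldD mice and from 12.28 to 12.43 in Young mice, with a difference of -0.05 (95% interval -0.36 to 0.26). Scn4b, the β subunit linked to resurgent sodium current in fast-firing neurons, had 7.50, 7.33 and 8.41 in OldD mice, against 7.57, 6.80 and 7.06 in Young mice. OldD mouse 11 stood above the other 5 mice, which overlapped. The means were 7.75 ± 0.58 in OldD and 7.14 ± 0.39 in Young mice (SD, n = 3 each), a difference of 0.60 (SE 0.31, 95% interval -0.11 to 1.32, adjusted p = 0.872, limma). Leaving out OldD mouse 11 gave 0.27, and leaving out OldD mouse 11 and Young mouse 19 together gave 0.10. Leaving out Young mouse 7 gave 0.82 (unadjusted p = 0.0396, limma) and leaving out OldD mouse 6 gave 0.81 (unadjusted p = 0.0438, limma), both past the threshold of the methods. Scn3b, a β subunit of forebrain neurons that was singled out after its values were seen, had 14.28, 14.28 and 14.09 in OldD mice, against 15.29, 14.45 and 14.11 in Young mice. Young mouse 7 carried most of that difference, which was -0.40 over all mice (SE 0.28), -0.06 without Young mouse 7, and -0.65 without Young mouse 20 (unadjusted p = 0.0399, limma, past the threshold of the methods).

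All 4 L-type genes had a positive difference between OldD and Young mice, of 0.07 to 0.29, and 0 of them passed the test. Cacna1c, the main L-type channel of hippocampal pyramidal cells, which couples activity to gene transcription, had 12.72, 13.14 and 13.19 in OldD mice, against 12.79, 12.49 and 12.91 in Young mice. OldD mice 6 and 11 lay above all Young mice, and OldD mouse 2 lay between Young values. The means were 13.02 ± 0.26 in OldD and 12.73 ± 0.22 in Young mice (SD, n = 3 each), a difference of 0.29 (SE 0.19, 95% interval -0.14 to 0.72, adjusted p = 0.886, limma). Without OldD mouse 11 and Young mouse 19 it was 0.08. Cacna1d, the L-type channel that opens at lower voltage and paces firing, ranged from 9.23 to 9.57 in OldD mice and from 9.12 to 9.66 in Young mice, with a difference of 0.07. Cacna1f and Cacna1s were at the silent level by their means. Cacna1s had 5.13, 5.03 and 5.12 in OldD mice, against 5.14, 4.90 and 4.37 in Old mice and 4.66, 5.39 and 4.96 in Young mice, so its difference of 0.29 for OldD against Old is one between undetected levels.

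None of the 3 presynaptic channel genes passed the test, and Cacna1a had no measured Old values. Cacna1a, the P/Q-type channel that triggers fast transmitter release, had 12.44, 12.48 and 12.30 in OldD mice, against 12.81, 12.16 and 12.60 in Young mice. OldD values lay inside the Young range, with a difference of -0.12 (95% interval -0.55 to 0.32). Cacna1b, the N-type channel of terminals, had 13.02, 13.52 and 13.25 in OldD mice, against 12.90, 13.18 and 13.40 in Old mice and 12.85, 12.85 and 13.70 in Young mice. Young mouse 20 was the highest of all 9 mice and the other Young mice were the lowest, so no order of groups shows. The difference of OldD from Young was 0.13 (95% interval -0.42 to 0.68), which became 0.41 without Young mouse 20 and -0.01 without Young mouse 7 or 19. OldD differed from Old by 0.10 (95% interval -0.45 to 0.65), so a fold of 1.5 is not bounded in either comparison. Cacna1e, the R-type channel of spines and terminals, had 14.18, 14.51 and 13.82 in OldD mice, against 14.44, 14.21 and 14.47 in Old mice and 14.24, 14.01 and 14.32 in Young mice. OldD mice held both its highest and its lowest value, and OldD differed from Old by -0.20 (95% interval -0.62 to 0.21) and from Young by -0.02 (95% interval -0.44 to 0.40). The difference from Old was -0.37 without OldD mouse 6 and -0.03 without OldD mouse 11.

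Among the T-type genes, Cacna1g, which supports burst firing and is known for thalamic relay neurons, had 7.03, 7.38 and 8.10 in OldD mice, against 7.44, 6.94 and 7.45 in Young mice. OldD mouse 11 was the highest of the 6, and the difference of 0.23 (SE 0.28, 95% interval -0.42 to 0.87) became -0.07 without it and -0.24 without it and Young mouse 19. Cacna1h, a T-type channel of granule cells and sensory neurons that was singled out after its values were seen, had 10.04, 10.57 and 10.23 in OldD mice, against 10.92, 10.31 and 9.95 in Young mice. Its difference was -0.11 (SE 0.26), and 0.15 without Young mouse 7. Cacna1i, the third T-type gene, ranged from 6.37 to 6.86 in OldD mice and from 6.16 to 6.82 in Young mice, with a difference of 0.09.

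The cytoplasmic β subunits carry calcium channels to the membrane. Cacnb2 had 13.27, 13.24 and 13.41 in OldD mice, against 13.41, 13.18 and 13.32 in Old mice and 13.31, 13.00 and 13.10 in Young mice. OldD and Old mice had the same mean to within 0.003, and both differed from Young by 0.17 (SE 0.14), with overlapping groups and shared Young mice. Cacnb4, the β subunit whose loss causes epilepsy and ataxia in the lethargic mouse, had 13.13, 13.22 and 13.21 in OldD mice, against 12.76, 13.12 and 13.05 in Old mice and 12.99, 12.91 and 13.54 in Young mice. OldD values lay above all Old values, by 0.01 at the closest pair, and inside the Young range. OldD differed from Old by 0.21 (SE 0.18, adjusted p = 0.883, limma), with an exact permutation p of 0.1, and from Young by 0.04. Cacnb1 ranged from 12.98 to 13.45 in OldD mice and from 13.20 to 13.62 in Young mice, with a difference of -0.21 (SE 0.19).

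The γ family held the member with the smallest p in OldD against Young. Cacng7, a type II TARP of AMPA receptors, had 13.38, 13.39 and 13.59 in OldD mice, against 12.95, 13.13 and 13.26 in Young mice. All OldD mice lay above all Young mice, by 0.12 at the closest pair. The means were 13.45 ± 0.12 in OldD and 13.11 ± 0.16 in Young mice (SD, n = 3 each). The difference was 0.34 (SE 0.15, 95% interval -0.01 to 0.69, adjusted p = 0.860, limma), and the exact permutation test gave its smallest p, 0.1. Its limma p was 0.0538, on the far side of the threshold for p, and the size lay below a fold of 1.5. Without OldD mouse 11 the difference was 0.27 and without it and Young mouse 19 it was 0.28. Cacng5, the other type II TARP, which was singled out after its values were seen, had 6.10, 6.48 and 7.73 in OldD mice, against 6.68, 7.47 and 6.22 in Young mice. OldD mouse 11 and Young mouse 19 were its highest mice, and the difference was -0.02 (SE 0.45) over all mice and -0.16 without both of them.

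Type I TARPs, the family of stargazin, were measured in OldD and Young mice only. Cacng2, which encodes stargazin and whose loss gives the stargazer mouse its absence seizures and ataxia, had 13.28, 13.33 and 13.52 in OldD mice, against 13.35, 12.88 and 13.27 in Young mice. Young mouse 19 was the lowest, and the difference of 0.21 (95% interval -0.18 to 0.60) was -0.005 without OldD mouse 11 and Young mouse 19. Cacng3, a TARP of cortex and hippocampus, had 15.26, 15.31 and 14.88 in OldD mice, against 15.30, 14.72 and 15.24 in Young mice. OldD and Young mice covered much the same range, with a difference of 0.06 (95% interval -0.41 to 0.53). Cacng8, the TARP best known from hippocampal AMPA receptors, had 11.92, 11.77 and 11.98 in OldD mice, against 12.23, 11.98 and 12.01 in Young mice. OldD mouse 11 met the lowest Young value at 11.98, and the difference was -0.18 (95% interval -0.52 to 0.15). Cacng4, a TARP also found in glia that was singled out after its values were seen, had 9.97, 10.17 and 10.77 in OldD mice, against 10.65, 10.62 and 10.19 in Young mice, and a difference of -0.18 (SE 0.24).

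Cacng6 and Cacng1, γ genes of the calcium channel kind, lay at the silent level. Cacng6 had 3.97, 4.03 and 4 in OldD mice, against 4.20, 4.21 and 4.22 in Young mice. The groups did not overlap, with a difference of -0.21 (SE 0.13, 95% interval -0.51 to 0.09, adjusted p = 0.885, limma) and an exact permutation p of 0.1. Its SD within groups was 0.02, against a median of 0.27 over all probe sets at or below the silent level. Cacng1 ranged from 4.25 to 4.84 in OldD mice and from 4.16 to 4.43 in Young mice. Neither gene is read as expressed here, so these are differences between undetected levels.

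Spread within groups varied widely among the members. The 25 members above the silent level had a median SD within groups of 0.24, from 0.06 for Scn2b to 0.79 for Scn7a, against 0.20 over 13692 probe sets above that level. The mice did not order alike over the members. OldD mouse 11 was the highest of the 6 OldD and Young mice for 12 members, and Young mouse 19 the lowest for 11. The median deviation of the 31 members from the mean of those 6 mice was nevertheless small in each mouse, at -0.03, 0.02 and 0.05 in OldD mice and 0.05, -0.05 and 0.03 in Young mice.

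OldD mouse 11 and Young mouse 19 also stood apart in markers of tissue that borders the hippocampus. The 14 thalamus markers, all above the silent level, had a median deviation of 2.08 in OldD mouse 11 and of -0.68 to -0.38 in the other OldD and Young mice, and 13 of them were highest in OldD mouse 11. Tcf7l2, a transcription factor of thalamic neurons, was 14.40 there and 9.64 to 10.07 in the others. The mean level of the list was 8.45, 8.55 and 11.2 in OldD mice, against 8.33, 9.09 and 8.39 in Young mice. The 15 choroid plexus markers on the array, 14 of them above the silent level, had a median deviation of 2.77 in OldD mouse 11 and 3.06 in Young mouse 19, against -1.65 to -1.03 in the others. Their mean level was 5.68, 5.76 and 10.1 in OldD mice, against 6.12, 10.4 and 6.31 in Young mice. Of these choroid plexus markers, 13 were highest in Young mouse 19 and 2 in OldD mouse 11. Cacna1g, Scn4b and Cacng5 were among the 12 members highest in OldD mouse 11, the mouse with high thalamus markers. In Young mouse 19, Cacna1g (6.94) and Scn4b (6.80) were the lowest of the OldD and Young mice, and Cacng5 was 7.47. The part of thalamus or choroid plexus tissue in these values was not tested.

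Markers of hippocampal principal cells differed between mice as well. The 10 dentate granule cell markers, all above the silent level, had a median deviation of 0.59 in Young mouse 7, against -0.24 to 0.08 in the other OldD and Young mice, and 7 of them were highest in it. Over the 5 of these markers measured in Old mice, the median deviation was 0.92, 0.145 and 0.13 in Old mice 3, 8 and 18. This smaller set of genes is not set against the 10 read in OldD and Young mice. The 12 pyramidal cell markers, all above the silent level, had a median deviation of 0.25 in Young mouse 7, against -0.19 to 0.06 in the other OldD and Young mice, and 6 of them were highest in it. The mean level was 9.49, 9.76 and 9.35 in OldD mice, against 10.2, 9.61 and 9.63 in Young mice for the granule cell list, and 9.78, 9.80 and 9.70 in OldD mice, against 9.93, 9.65 and 9.84 in Young mice for the pyramidal cell list. Young mouse 7 was the highest of the OldD and Young mice for 6 members and the lowest for 5. Young mouse 20 was also the highest for 6. Scn3b and Cacna1h, singled out after their values were seen, were highest in Young mouse 7, and Scn7a was lowest in it. The part of granule or pyramidal cells in these values was not tested.

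**Figure D4:**
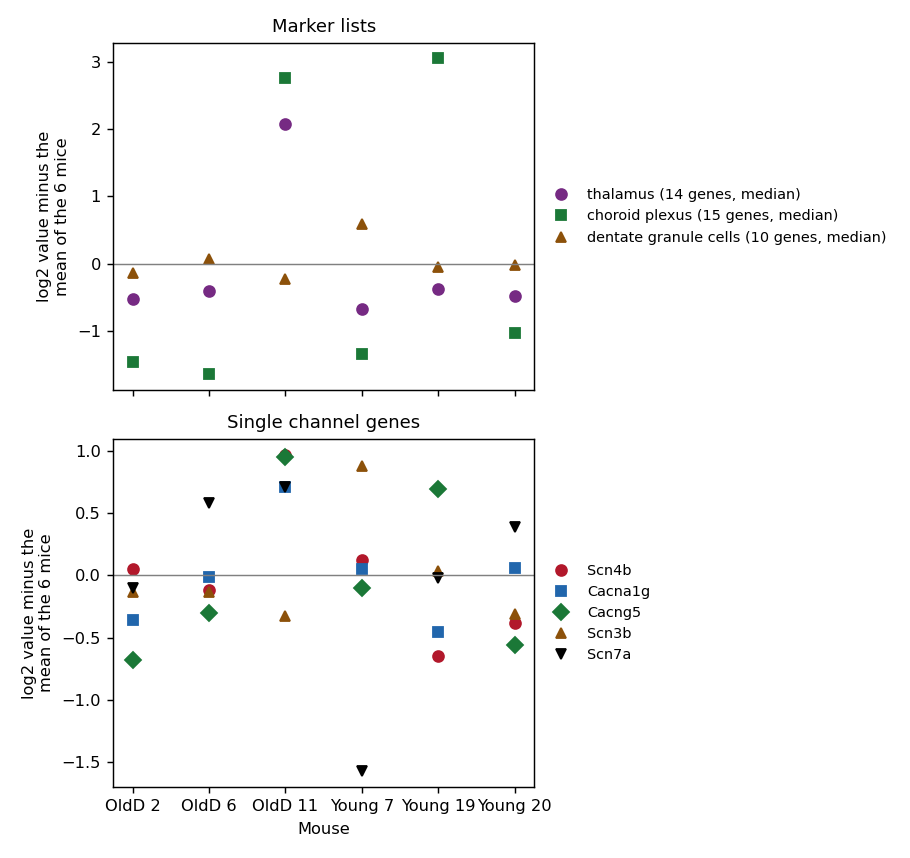
Deviation from the mean of the 6 OldD and Young mice (vertical axes, log2) in each mouse (horizontal axis), as the median of 3 marker lists in the upper panel and for 5 channel genes in the lower panel. The 5 genes were picked from the members, Cacng5 and Scn3b after their values were seen. Thalamus markers are high in OldD 11 (2.08), and choroid plexus markers in OldD 11 (2.77) and Young 19 (3.06). Scn4b, Cacna1g and Cacng5 are highest in OldD 11.

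Genes that work with these channels were read from 4 lists. The α2δ subunits (4 of 4 on the array), which raise calcium channel number at terminals, gave 0 genes with an unadjusted p under 0.05 and a median difference of 0.03 between OldD and Young mice, with 0.34 for Cacna2d4, 0.10 for Cacna2d3, -0.11 for Cacna2d2 and -0.05 for Cacna2d1. Cacna2d4 lay below the silent level by its mean, with 5.10, 5.27 and 5.35 in OldD mice, against 5.46, 4.91 and 4.33 in Young mice. The complex of the sodium leak channel NALCN (4 of 7) gave 0 and a median of 0.14, with 0.16 for Unc80 and 0.13 for Unc79, which hold the complex together. Partners of sodium channels at the axon initial segment (8 of 8) gave 0 and a median of -0.03, with -0.27 for Nfasc, an adhesion molecule of the segment and the node, and 0.34 for Fgf11, a relative of the factors that bind the sodium channel tail. Regulators of calcium channels (12 of 14) gave 1 lower gene and 0 higher with an unadjusted p under 0.05, with a median of -0.19, where limma called 5.71% of all probe sets in OldD against Young by that rule. That gene was Rrad, a small GTPase that inhibits calcium channels, with 3.95, 3.31 and 2.96 in OldD mice, against 4.05, 3.82 and 4.30 in Young mice. Its difference of -0.65 (SE 0.26, unadjusted p = 0.0354, adjusted p = 0.860, limma) passed the threshold of the methods, as did 1.7% of all probe sets, but all 6 values lay below the silent level of 5.36. Rims1, the active zone protein that ties calcium channels to vesicles, differed by 0.33 (adjusted p = 0.871, limma). The few genes of these lists with Old values gave 0 with an unadjusted p under 0.05 in either comparison with Old, where limma called 5.33% (OldD against Old) and 4.26% (Old against Young) of all probe sets.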

How the data were processed

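RNA of 9 mouse hippocampi (3 OldD, 3 Old, 3 Young) was hybridized to 1 Clariom S array each after labelling by the GeneChip WT Plus chemistry. Per the labels and methods, the authors used the Transcriptome Analysis Console for normalization and deposited log2 values per probe set. How background was corrected and probes were summarised, and on which genome build, was not given in the sources used here. Old values with more than 2 decimals (15915 per mouse) were treated as missing, so Old entered the fit only for 6291 of 22206 probe sets. Of these 22206, 19572 had 1 gene symbol in the platform annotation and 2634 had none.

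A linear model with a mean per group was fitted over all 9 mice in limma 3.58.1 (R 4.3.3; lmFit and eBayes, prior degrees of freedom 4.22), with Benjamini-Hochberg adjustment across all probe sets of a comparison. The fit was also run on simulated data with set fold differences, and the share of them that it called is not reported here. Single genes also had an exact two-sided permutation test. No batch is given in the labels, and precision is limited by the number of arrays. Values per mouse are given for the 9 members with Old values, the 6 members with the smallest p in OldD against Young, and a list of main brain channel genes; Scn3b, Cacna1h, Cacng4 and Cacng5 were added after their values were seen. Members, gene lists and marker lists were chosen with earlier results of these data known. Alternatives tried were fitting only the 2 groups of a comparison, trended and robust eBayes, array weights, a one-way model without moderation and the t-test. Others were quantile normalization, median centring and filters on dim probe sets (log2 of at least 6, or above the silent level). Averaging the probe sets of each gene and a fold threshold of 1.2 or none were also tried. Further fits left out each mouse, and OldD mouse 11 and Young mouse 19 together. Upstream sequences came from RefSeq (GRCm38.p6). Plots were made in Python 3.11.15 with matplotlib 3.10.9.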

Additional observations from a re-analysis of the deposited data

How the results depend on the processing

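With each mouse left out in turn, the count of members past the threshold of the methods was 0 to 0 for OldD against Old, 0 to 1 for Old against Young (Scn7a, without Young mouse 20) and 0 to 2 for OldD against Young (Scn7a and Scn3b without Young mouse 20, Scn4b without Young mouse 7 or OldD mouse 6). The count was 0 under each of the other alternatives run. The median log2 difference of the members ranged from -0.0267 to 0.122 for OldD against Old, from -0.00667 to 0.148 for Old against Young and from -0.0183 to 0.0717 for OldD against Young when 1 mouse was left out. Without OldD mouse 11 and Young mouse 19 it was 0.11 for OldD against Old and 0.01 for OldD against Young. Cacng7 had an unadjusted p under 0.05 in OldD against Young with trended and robust eBayes, without moderation, in the t-test and with quantile normalization. It also did so with either filter on dim probe sets and without Young mouse 20 (difference 0.41), and 0 of these passed the fold threshold. Cacng6 had such a p with no moderation and in the t-test, and Cacng1, at the silent level, without OldD mouse 2. Neither passed the threshold of the methods there. The cause of these changes was not tested. Members below a filter had no value under it. No paired analysis was possible because the groups are different mice. With 3 mice a group and values dropped for most Old probe sets, differences under a fold of 1.5 were often not bounded.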
